A study of Mus musculus with 3 samples.

Results

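The genes described here encode splicing factors and proteins of the small nuclear ribonucleoproteins (snRNPs). They were taken by name: every array probe whose deposited gene name begins with Sfrs, Srsf, Hnrp, Hnrnp, Sf3a, Sf3b, Snrp, U2af, Prpf or Lsm and a digit, and that was well above background in both channels. Of 41174 probes, 175 carried such a name, 155 were above background in both channels on each array, and 153 were so on all 3. These 153 probes measured 85 genes, out of 10948 genes measured on all 3 arrays by 15865 probes. The rule uses names and brightness and no ratio. Of the named probes, 3 were measured on 2 arrays and 19 on none, which left Snrpn (2 probes) and Hnrnpul2 (1 probe) without a value.

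The cells were MigA9, a mouse line that Hoxa9, a homeobox transcription factor of leukaemia, had transformed, grown in medium with GM-CSF. They received 2.5 µM DB818, a compound that sits in the minor groove of DNA and has been studied for blocking HOXA9 at its sites, for 6, 12 or 24 h. On each of 3 two-colour Agilent arrays, 1 per time, RNA of treated cells was labelled with Cy5 and RNA of untreated MigA9 cells with Cy3. All groups are this 1 line. No time has a second culture or array, the dyes were not swapped, and whether the untreated RNA was 1 preparation or matched in time is not stated by the labels.

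Introns are removed by the spliceosome, which assembles from the U1, U2, U4, U5 and U6 snRNPs. U1 marks the 5′ splice site, U2AF and the U2 snRNP mark the 3′ splice site and the branch point, and each snRNP core is a ring of Sm or Lsm proteins. SR proteins and hnRNPs bind the pre-mRNA and steer which sites are used, often in opposite directions. Blood cell cancers frequently carry mutations in U2AF1, SRSF2, SF3B1 or ZRSR2, so the mouse counterparts of these genes are given by name.

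Promoter windows are shown for 3 members whose ratios the account returns to: U2af1, the largest rise, Snrpe, a rise of nearly the same size at each time, and Prpf40b, the largest fall. Each spans 300 bases around the annotated start, most of them upstream, 5′ to 3′ on the strand of the gene, from RefSeq on GRCm38.p6; where RefSeq lists several windows for a gene, the one listed first is shown. Capitals mark matches to CCGGAAG, the core of ETS sites, or CCAAT, the box bound by NF-Y, on either strand, and adjoining matches run together.
U2af1 (chr17:31658715-31659014, minus strand): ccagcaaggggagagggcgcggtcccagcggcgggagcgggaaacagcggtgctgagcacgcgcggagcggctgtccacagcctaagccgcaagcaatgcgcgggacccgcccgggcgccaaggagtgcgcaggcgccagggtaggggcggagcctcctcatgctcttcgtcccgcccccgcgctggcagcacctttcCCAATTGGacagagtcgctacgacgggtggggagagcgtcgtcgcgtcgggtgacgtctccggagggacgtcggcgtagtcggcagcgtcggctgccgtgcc
Snrpe (chr1:133610231-133610530, minus strand): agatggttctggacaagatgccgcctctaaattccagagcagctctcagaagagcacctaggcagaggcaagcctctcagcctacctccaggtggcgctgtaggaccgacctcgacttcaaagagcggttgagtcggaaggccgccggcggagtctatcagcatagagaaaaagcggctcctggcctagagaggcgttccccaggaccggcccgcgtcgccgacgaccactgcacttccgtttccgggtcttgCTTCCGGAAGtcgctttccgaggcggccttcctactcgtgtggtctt
Prpf40b (chr15:99294991-99295290, plus strand): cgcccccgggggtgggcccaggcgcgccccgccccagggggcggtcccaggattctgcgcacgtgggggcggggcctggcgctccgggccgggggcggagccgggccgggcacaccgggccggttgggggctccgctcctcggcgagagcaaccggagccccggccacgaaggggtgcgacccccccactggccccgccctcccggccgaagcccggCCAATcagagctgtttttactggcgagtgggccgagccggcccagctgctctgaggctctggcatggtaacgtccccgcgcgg
In U2af1 the capitals are CCAAT read on both strands, in Snrpe they are CCGGAAG read on both strands, and in Prpf40b they are 1 CCAAT. These windows had a GC content of 72, 60.3 and 78.3%. RefSeq windows were found for 74 of the 85 genes, 97 windows in all. CCGGAAG was present in 29.9% of them, against 8.86% of all 32851 windows, CCAAT in 41.2% against 37.4%, and GGGCGG, the box bound by Sp1, in 71.1% against 35.7%. TATAAA was present in 6.19% against 13.6%, AAGATGGC (YY1) in 5.16% against 2.75%, TGACGTCA (the cyclic AMP response element) in 3.09% against 1.79%, and TGATTTA, a HOXA9 and PBX site, in 1 member window (1.03%) against 2.97%. The median GC content was 61% in member windows and 52.7% in all windows, and these motifs differ in GC content. Among the 16 rising and 5 falling genes with a window, CCGGAAG was found in 6 and 0, CCAAT in 7 and 3, and GGGCGG in 12 and 4. Of all 74 member genes with a window, 22, 32 and 54 held these motifs. Differences between rising and falling genes were not tested. A match describes the letters and no more.

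The arrays measured 40.6 to 41.0% of their probes in both channels, and repeated spots of 1 probe scattered by 0.0336 to 0.0510 (SD, log2 ratio). Between 95.7 and 97.8% of all genes had a log2 ratio within 0.32 of 0 on each array. No spot of a member was saturated or marked as an outlier by the scanner. Of 12 myeloid progenitor genes listed as markers, 11 were on the array and 10 measured on all 3 arrays. Their mean log2 ratios, treated over untreated, ran from -0.67 (Mpo) and -0.62 (Elane) to 0.32 (Kit) and 0.38 (Itgam), a wider range than that of the members, and their part in the members' ratios was not tested. Of the marker lists for T cells, B cells, erythroid cells, megakaryocytes and for fibroblasts and epithelium (4, 4, 3, 3 and 4 genes on the array), 0 genes were measured on all arrays. In bulk RNA, fewer cells that use a gene and less of its RNA in each cell cannot be told apart.

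Over the 3 times, DB818-treated cells had more U2af1 and Hnrnph1 RNA than untreated cells and less Prpf40b, Snrpb and U2af2 RNA (for Snrpb the sign turned with median centring), and the differences were small. Unless a fold or a signal is named, values are log2 ratios of treated over untreated cells, where 0 means equal signals. The mean of the 3 ratios was tested against 0 with limma over all 10948 genes, with Benjamini-Hochberg adjustment and a threshold of 0.05, so that the 3 times stand in for replicates (n = 3 arrays). Of 85 genes, 27 passed (31.8%), against 28.8% of all genes. In these 27, 20 rose (23.5%, against 20.6% of all genes) and 7 fell (8.24%, against 8.14%), while 58 did not pass. These shares lie near those of all genes, so with loess and the filter on dim probes the members as a list did not stand apart. The median of the mean ratio was 0.03 for members and 0.03 for all genes. Called members differed by a median of 1.13-fold and called genes in general by 1.12-fold. A mean of at least 0.322 either way was called in 2 members, with the largest for U2af1 (1.29-fold), among 208 such genes in all. Without the 12 h array 5 members rose and 3 fell, among them U2af1, Hnrnph1, Hnrnpa3, the Sfrs10 probe, U2af2, Prpf40b and Snrpb, and the other 19 calls were lost. Without the 6 h array the calls of Prpf19, Zrsr2, Prpf18, Snrpd1, Srek1, Srsf6, Prpf4b and Prpf8 were lost, and without the 24 h array, where 4 fell, those of Sf3a3, Hnrnph2, Hnrnpu, Prpf18, Srek1, Srsf6, Prpf4b and Prpf8. With median centring in place of loess 59 rose and 11 fell (82.4% called, against 81.1% of all genes). Of all 10948 genes, 4405 then rose and 4472 fell. The members' median was 0.23, against 0.0038 for all genes, so with this step the members did lean upward. Without the filter on dim probes 25.3% of members were called, against 11.1% of the 27336 genes then tested. With Agilent's processed signals, where background correction and normalisation both differ, 6 rose and 5 fell (12.9%, against 13.3%). With loess and an offset of 0, 9 rose and 4 fell (15.3%, against 17.5%).

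**Figure D1:**
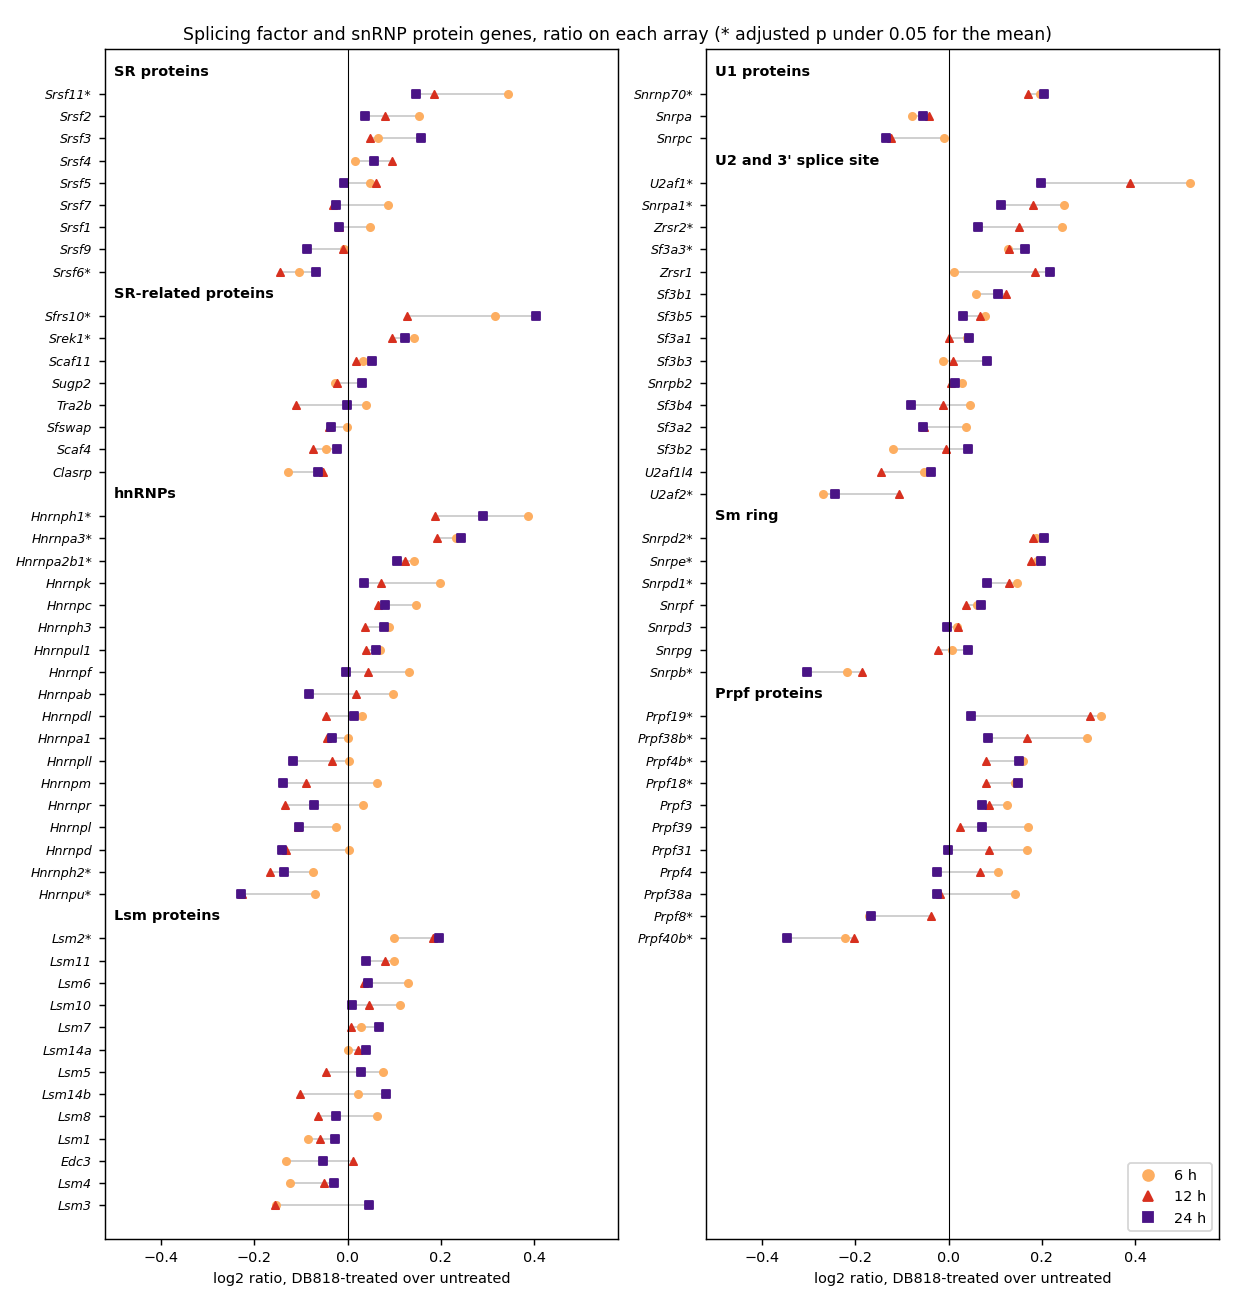
Log2 ratios (x axis, DB818-treated over untreated cells) of the genes, grouped by role, with 1 symbol for each of the 6, 12 and 24 h arrays. The ratios run from -0.35 (Prpf40b at 24 h) to 0.52 (U2af1 at 6 h), and 63, 49 and 49 of 85 lie above 0 at 6, 12 and 24 h after loess.

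The genes of the protein pair that recognises the 3′ splice site had RNA ratios of opposite sign on each array. U2af1 encodes the small subunit of U2AF, which reads the AG at the end of the intron, and U2af2 encodes the large subunit, which binds the polypyrimidine tract before it. On the brighter of its probes, U2af1 had log2 signals of 11.91, 11.62 and 11.53 in cells treated for 6, 12 and 24 h, against 11.34, 11.25 and 11.34 in the untreated cells of the same arrays. Treated cells were thus higher on each array, and the groups did not overlap, with the lowest treated signal (24 h) above the highest untreated one. Overlap, here and below, compares signals between arrays and sets aside the pairing of the channels on each array. How many of all genes lacked overlap was not counted. The ratios, averaged over both probes, were 0.52, 0.39 and 0.20, with a mean of 0.37 ± 0.06 (SE, n = 3 arrays; limma adjusted p = 0.0073). The probes gave means of 0.36 and 0.37. U2af2 had log2 signals of 7.19, 7.18 and 6.94 in treated cells on one probe, against 7.42, 7.27 and 7.21 in untreated cells, and of 7.39, 7.34 and 7.10, against 7.70, 7.45 and 7.31, on the other. Treated cells were lower on each array on both probes. On the first probe the groups did not overlap, and on the other the untreated signal at 24 h lay below the treated signals at 6 and 12 h. U2af2 had a mean of -0.21 ± 0.04 (adjusted p = 0.012), with ratios of -0.27, -0.11 and -0.24. Both calls held under all 11 alternatives of processing and of arrays, with means of 0.29 to 0.55 for U2af1 and -0.43 to -0.13 for U2af2. The difference between the 2 genes was not tested.

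Among the other genes of the U2 snRNP and the 3′ splice site, 3 rose: Snrpa1, a U2-specific protein (0.18), Zrsr2, which recognises 3′ splice sites of minor introns (0.15), and Sf3a3, a subunit of SF3A (0.14). In all, 4 of these 15 genes rose, 1 fell and 10 did not pass, with a median of 0.03. Zrsr2 had ratios of 0.24, 0.15 and 0.06, and its call held under 6 of 11 alternatives. The call was lost without the 6 h or the 12 h array, with Agilent's processed signals, with offset 0 and without the filter on dim probes. Its relative Zrsr1 had 0.01, 0.18 and 0.22 and did not pass (mean 0.14, adjusted p = 0.060). Sf3b1, the branch point protein, had 0.06, 0.12 and 0.11 (mean 0.10, adjusted p = 0.056) and Sf3a1 0.04, 0.00 and 0.04. Neither passed. Sf3b2, which belongs to the same SF3B complex as Sf3b1, had -0.12, -0.00 and 0.04 and did not pass.

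**Figure D2:**
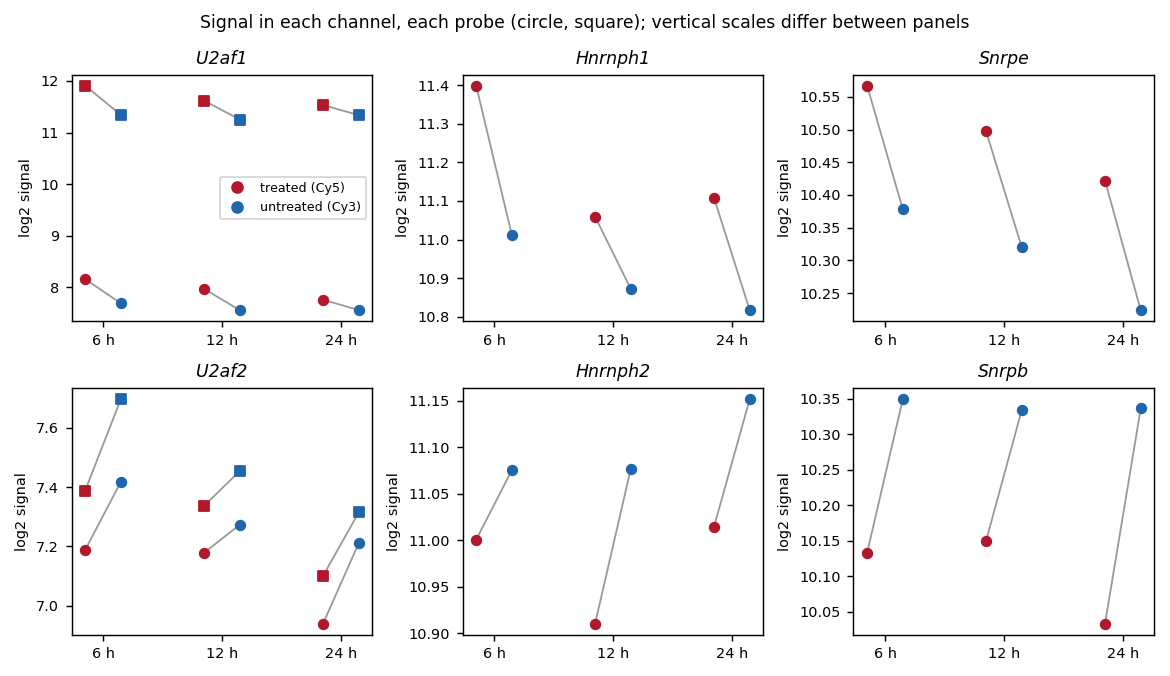
Log2 signals (y axis) of treated (red) and untreated (blue) cells on the 6, 12 and 24 h arrays for 6 genes that form pairs of relatives or partners, 1 panel a gene, each line joining both channels of a probe on 1 array. U2af1, Hnrnph1 and Snrpe show treated above untreated signals on every array, while U2af2, Hnrnph2 and Snrpb show the reverse (the ratios of Hnrnph2 and Snrpb turned to 0.23 and 0.06 with median centring).

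Prpf genes, named after pre-mRNA processing genes of yeast, held genes that rose and the largest fall of the mean. Of 12, 5 rose, 2 fell and 5 did not pass, with a median of 0.09. Prpf40b encodes a relative of the yeast U1 protein Prp40. Prpf40b, which was dim, had log2 signals of 6.55, 6.42 and 6.30 in treated cells, against 6.77, 6.62 and 6.64 in untreated cells, with no overlap between the groups. Its ratios were -0.22, -0.20 and -0.35 (mean -0.26 ± 0.04, adjusted p = 0.0061). The call held under the 10 alternatives in which the gene could be fitted. Its size depended on the background correction and scaling, at -0.77 from Agilent's processed signals and -0.79 with median centring.

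Prpf19, a ubiquitin ligase of the activated spliceosome, had 0.33, 0.30 and 0.05 (mean 0.23 ± 0.06, adjusted p = 0.026), so most of its rise lay at 6 and 12 h. Its call held under 6 of 11 alternatives. It was lost without the 6 h or the 12 h array, with Agilent's processed signals, with offset 0 and without the filter on dim probes. Prpf38b had a like order of ratios, 0.30, 0.17 and 0.08 (mean 0.18), with 0.28 and 0.09 on its probes. With median centring its mean was 0.0054 (limma adjusted p = 0.93), and its call was also lost with Agilent's processed signals and with offset 0. Prpf18, a factor of the second catalytic step (0.12), and the kinase Prpf4b (0.13, but -0.02 with median centring) also rose. The calls of Prpf18 and Prpf4b held under 5 and 3 of 11 alternatives. Prpf8, the protein at the catalytic centre of the U5 snRNP, fell with -0.17, -0.04 and -0.17 (mean -0.13 ± 0.04, adjusted p = 0.045), a call that 1 of 11 alternatives kept and that turned to 0.15 with median centring. Prpf3, Prpf4 and Prpf31 of the tri-snRNP did not pass (0.09, 0.05 and 0.08).

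In the U1 snRNP, Snrnp70, the protein that binds U1 RNA and SR proteins, rose with 0.19, 0.17 and 0.21 (mean 0.19 ± 0.03, adjusted p = 0.0069), whereas Snrpa and Snrpc did not pass (-0.06 and -0.09). The probes of Snrnp70 disagreed in size, with means of 0.05 and 0.33, and on the brighter one alone the call was lost. The Sm ring, shared by the snRNPs, also split. Of its 7 measured genes, Snrpd2, Snrpe and Snrpd1 rose, Snrpb fell, and Snrpd3, Snrpf and Snrpg did not pass (0.01, 0.06 and 0.01). Snrpe, whose promoter window holds CCGGAAG on both strands, had log2 signals of 10.57, 10.50 and 10.42 in treated cells, against 10.38, 10.32 and 10.22 in untreated cells. Treated cells were higher on each array by nearly the same amount, 0.19, 0.18 and 0.20, and the lowest treated signal (24 h) lay just above the highest untreated one (6 h). Snrpd2 had the same ratios to 2 decimals (mean 0.19 ± 0.03, adjusted p = 0.0066) and Snrpd1 had a mean of 0.12. The groups of Snrpd2 did overlap, with 10.92 in treated cells at 24 h, against 10.94 in untreated cells of the 6 h array. The calls of Snrpd2, Snrpe and Snrpd1 held under 10, 9 and 5 of 11 alternatives. Snrpb, which encodes SmB, had signals of 10.13, 10.15 and 10.03 in treated cells, against 10.35, 10.33 and 10.34 in untreated cells, without overlap. Its mean was -0.23 ± 0.03 (adjusted p = 0.0062), and with median centring it was 0.06, so its direction rests on the loess step. Snrpn, the relative of Snrpb known from brain, was not measured.

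Of 13 genes deposited under an Lsm name, 1 rose, 0 fell and 12 did not pass, with a median of 0.02. Lsm1 to Lsm8 form the ring on U6 and its cytoplasmic counterpart in mRNA decay. The class also holds Lsm10, Lsm11, Lsm14a, Lsm14b and Edc3 (deposited as Lsm16), so its counts are not those of the ring alone. Lsm2 rose with 0.10, 0.18 and 0.20 (mean 0.16, adjusted p = 0.015), a call that was lost with the brightest probe alone, with Agilent's processed signals and with median centring, where the mean was 0.015 (limma adjusted p = 0.72). Lsm1, of the cytoplasmic ring, and Lsm4 did not pass (-0.06 and -0.07). Lsm3 had -0.15, -0.15 and 0.05. Lsm10 and Lsm11, of the U7 snRNP that processes histone mRNA, had means of 0.06 and 0.07 and did not pass.

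SR proteins bind exonic enhancers and recruit the spliceosome. Of 9 genes, Srsf11 rose, Srsf6 fell and 7 did not pass, with a median of 0.03. Srsf11 had 0.34, 0.19 and 0.15 (mean 0.23 ± 0.04, adjusted p = 0.013), with means of 0.31 and 0.14 on its probes. Srsf6 had -0.11, -0.15 and -0.07 (mean -0.11, adjusted p = 0.044, but 0.04 with median centring), and its probes stood at -0.20 and -0.01. Srsf2, for which recurrent mutations are known in human leukaemia, had 0.15, 0.08 and 0.04 (mean 0.09, adjusted p = 0.087). Srsf1, Srsf3, Srsf5 and Srsf7 had means of 0.00, 0.09, 0.03 and 0.01 and did not pass. Of 8 SR-related genes, 2 rose and 0 fell, with a median of -0.02. One is Srek1 (0.12, but -0.12 with median centring). The other is a single probe deposited under the old name Sfrs10, which RefSeq pairs with both Srsf2 and Tra2b, so its gene is not settled. It had 0.32, 0.13 and 0.40 (mean 0.28 ± 0.05, adjusted p = 0.011), while the probe named Tra2b by its accession had 0.04, -0.11 and -0.00.

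hnRNPs coat nascent RNA and often silence splice sites. Of 18 genes, 3 rose, 2 fell and 13 did not pass, with a median of 0.01. Hnrnph1 and Hnrnph2 encode closely related proteins that bind runs of G. Hnrnph1 had log2 signals of 11.40, 11.06 and 11.11 in treated cells, against 11.01, 10.87 and 10.82 in untreated cells, and ratios of 0.39, 0.19 and 0.29 (mean 0.29 ± 0.04, adjusted p = 0.0062). Every treated signal lay above every untreated one, and the call held under all 11 alternatives. Hnrnph2 had ratios of -0.07, -0.17 and -0.14, also without overlap between the signals of treated and untreated cells, and fell (mean -0.13 ± 0.03, adjusted p = 0.029), but stood at 0.23 with median centring. Hnrnpu, a nuclear scaffold protein, fell with -0.07, -0.23 and -0.23 (mean -0.17, adjusted p = 0.022), but stood at 0.25 with median centring. Hnrnpa2b1 rose (0.12), a call that held under 7 of 11 alternatives and was lost on its brightest probe alone (0.05). Hnrnpa1, Hnrnpc, Hnrnpk and Hnrnpl did not pass (-0.03, 0.10, 0.10 and -0.08).

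Hnrnpa3 rose in the mean (0.22 ± 0.03, adjusted p = 0.0054), but its 4 probes stood at 0.01, 0.07, 0.20 and 0.61. One probe had 0.84, 0.57 and 0.43, and another for the same accession 0.04, 0.07 and 0.09. With the brightest probe alone the mean was 0.07 and the call was lost. Of 43 members with more than 1 probe, 27 had means of 1 sign on all their probes, and the range between probes had a median of 0.14 and a maximum of 0.60. All 15 called genes with several probes, 11 that rose and 4 that fell, had 1 sign on all of them. The call is made on the average of these same probes, which favours such agreement. The sign is that of each probe's mean over the arrays, also where this mean was near 0 (0.01 for a Hnrnpa3 probe). The other 42 members, with them Hnrnph1, Prpf40b, Snrpb and Snrpe, rest on 1 probe, and whether a probe also binds RNA of a near-identical relative was not tested.

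**Figure D3:**
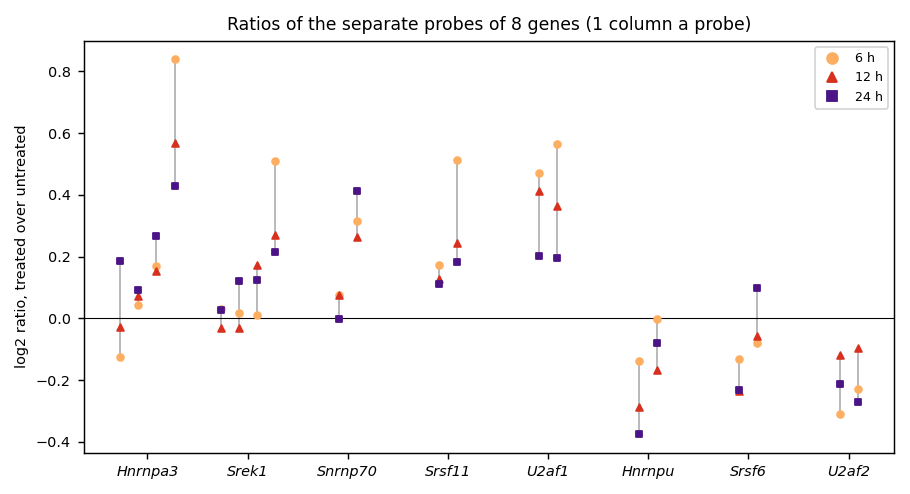
Log2 ratios (y axis, treated over untreated) of each measured probe of 8 genes, 1 column a probe and 1 symbol for each of the 6, 12 and 24 h arrays. The probes of U2af1 lie together (means 0.36 and 0.37), as do those of U2af2 (-0.20 and -0.21), while those of Hnrnpa3 spread from 0.01 to 0.61.

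At single times the differences have no replicate check and are given by size. At 6 h, 5 of 85 members were higher by a log2 ratio of at least 0.322 (5.88%, against 1.93% of all genes) and 0 were lower by as much (against 0.685%). Among the 5 higher genes were U2af1 (0.52), Hnrnph1 (0.39), Srsf11 (0.34) and Prpf19 (0.33), and the lowest of all members were U2af2 (-0.27), Prpf40b (-0.22) and Snrpb (-0.22). At 12 h, U2af1 (0.39) alone was higher by as much (1.18%, against 1.50%) and 0 were lower (against 0.676%). Prpf19 (0.30) came next, and Hnrnpu (-0.23), Prpf40b (-0.20) and Snrpb (-0.18) were lowest. At 24 h the Sfrs10 probe (0.40) was higher by as much (1.18%, against 2.84%) and Prpf40b (-0.35) lower (1.18%, against 1.46%). Hnrnph1 stood at 0.29, and Snrpb (-0.30) and U2af2 (-0.24) were the next lowest. After loess, 74.1, 57.6 and 57.6% of members lay above 0 at 6, 12 and 24 h, against 60.7, 60.2 and 60.5% of all genes. On all 3 arrays, 48.2% of members were above 0 and 20.0% below, against 41.2 and 21.1% of all genes. With median centring the medians of the members were 0.28, 0.16 and 0.20, in place of 0.06, 0.02 and 0.04. The median of all genes in the mean was then 0.00, and members were brighter than genes in general, with a median average log2 signal of 9.52, against 7.93.

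The ratios of members at 24 h were set against those at 6 h, where a dye bias that a probe has on both arrays cancels. The median of 24 h minus 6 h was -0.04 for members and -0.00 for all genes, and 61.2% of members were below 0, against 50.1%. No member differed by 0.322 or more between these times (0 higher, against 1.59% of all genes, and 0 lower, against 1.05%). U2af1 (-0.319, just short of this cut-off), Prpf19 (-0.28) and Prpf38b (-0.21) had the lowest differences, and Zrsr1 (0.21), Lsm3 (0.20) and Sf3b2 (0.16) the highest. Of the 12 Prpf genes, 10 were below 0, with a median of -0.11.

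Ratios of the hnRNPs were lower at 24 h than at 6 h in 17 of 18 genes, Hnrnpa3 (0.01) being the exception. This class was singled out after its values were seen, and the difference has no replicate. Their median was 0.07 at 6 h, -0.01 at 12 h and -0.02 at 24 h, and the median of 24 h minus 6 h was -0.09. The lowest differences were those of Hnrnpm (-0.20), Hnrnpab (-0.18), Hnrnpk (-0.16) and Hnrnpu (-0.16). Under the alternatives with 1 value per gene, 14 to 17 hnRNPs were below 0 (of 18, or of 19 without the filter on dim probes), as were 49.1 to 51.3% of all genes. For single channels, the average log2 signal of both channels was quantile-normalised across arrays, and neither channel on its own. On this scale, 14 of 18 hnRNPs had a lower signal at 24 h than at 6 h in treated cells (median -0.06), and 12 of 18 in untreated cells (median -0.03). Of all 85 members, 74.1% were lower in treated and 62.4% in untreated cells, near the hnRNPs' 77.8 and 66.7%. In most of these genes the untreated signal was thus also lower on the 24 h array. The same shares over all genes were not taken, and which channel carries the difference was not tested. Across all members the untreated signal ranged over the 3 arrays by a median of 0.11 and at most 0.43.

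**Figure D4:**
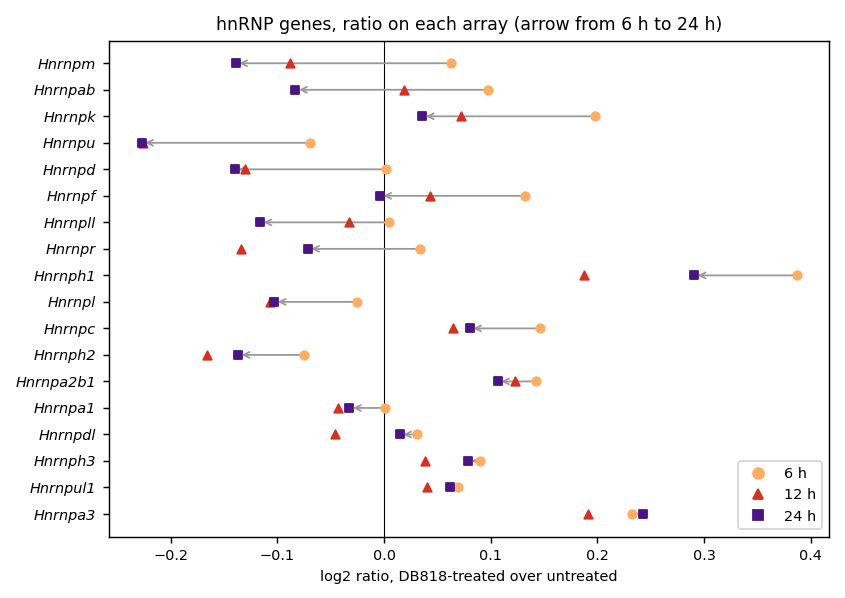
Log2 ratios (x axis, treated over untreated) of 18 hnRNP genes on the 6, 12 and 24 h arrays, with an arrow from 6 h to 24 h for each gene. The arrows point to lower ratios in 17 genes, with the longest for Hnrnpm (-0.20), and Hnrnpa3 stays in place (0.01).

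Other genes of the spliceosome and of splicing were taken from a list of 106 symbols, of which 3 are members under older names and 102 were measured. Of these, 22 rose (21.6%, against 20.6% of all genes), 5 fell (4.90%, against 8.14%) and 75 did not pass, with a median of 0.04. The highest were Srrm2, a scaffold protein of nuclear speckles (0.32, adjusted p = 0.0032), Rnps1, which joins the exon junction complex (0.26, adjusted p = 0.0084), Slu7, a factor of the second step (0.23, adjusted p = 0.0047), and Ilf2, a nuclear RNA binding factor (0.23, adjusted p = 0.0145). The lowest were Mbnl1, a regulator of alternative splicing (-0.16, adjusted p = 0.046), Xab2, a protein of the Prp19-related complex (-0.14), and the helicases Ddx39b (-0.13) and Dhx16 (-0.11). With median centring Xab2, Ddx39b and Dhx16 stood at 0.08, 0.04 and 0.12.

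**Figure D5:**
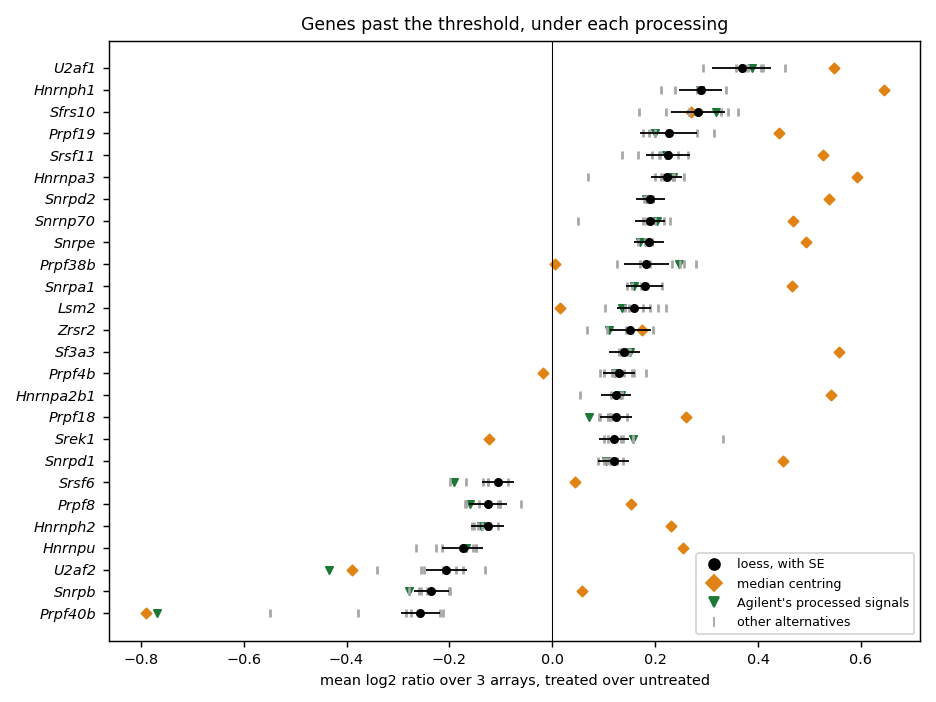
Mean log2 ratio over the 3 arrays (x axis, treated over untreated) of genes past the threshold, with its SE from limma (black), beside the value with median centring, with Agilent's processed signals and under the other alternatives. U2af1, Hnrnph1, U2af2 and Prpf40b keep their call throughout, and Prpf4b, Srek1, Srsf6, Prpf8, Hnrnph2, Hnrnpu and Snrpb change sign with median centring.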

How the data were processed

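Total RNA was measured on 3 two-colour Agilent arrays, 1 per time. Per the submitters' processing notes, signals were extracted with Agilent Feature Extraction 9.1.3.1. Per the file headers, each deposited scanner file gives the intensity of every spot and of its background in both channels. The deposited table of values holds log10 ratios, which differed by 0 from those of the scanner files and were not used for the main values. How the labels were incorporated is given only as the manufacturer's instructions, per the labels.

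From the deposited intensity values, log2 ratios of Cy5 (treated) over Cy3 (untreated) were computed in limma 3.58.1 (R 4.3.3, data-table package version 1.17.8). Mean foreground and median background were corrected with normexp (offset 50) and loess was applied within arrays, without scaling between arrays. The offset draws the ratios of dim genes toward 0. Control and outlier spots were left out, and probes of a gene were averaged where they stood well above background in both dyes and were unsaturated on all arrays. Symbols of member probes came from RefSeq (GRCm38.p6) by accession (126), symbol (18) or synonym (30), and 1 kept the file's name. The mean over 3 arrays was fitted on an intercept with eBayes (2 residual and 4.84 prior degrees of freedom). With 3 arrays, the p-values measure the spread between times, and a dye effect constant over arrays is part of the mean. For signals of single channels, the average log2 signal of both channels was quantile-normalised over arrays (Aquantile). Each channel was then derived from this average and the ratio. On simulated ratios for 10948 genes, the fit recovered 46 of 67 genes planted at 1.25-fold, 64 of 67 at 1.5-fold and 64 of 66 at 2-fold, with 2 false calls among 176. The simulated ratios of the other genes were noise around 0, without a dye effect or an error of background correction or normalisation. These counts therefore do not cover such errors.

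The members, lists and tests were chosen with earlier results of these data known. Named were the 12 largest rises and falls past the threshold, the 3 highest and lowest at each time and for 24 h minus 6 h, the largest mean of each class, 26 genes fixed by name, and the 4 highest and lowest called genes of the other list. The remaining genes are named as members of a class, and a gene within the rule that is counted but not named is not reported here. Alternatives covered background correction, normalisation, dim probes, choice of probe, array weights and leaving out arrays. Numbers were summarised with Python 3.11.15, numpy 2.4.6 and pandas 2.3.3, and plotted with matplotlib 3.10.9.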

Additional observations from a re-analysis of the deposited data

Results flagged for a closer look

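Hnrnpab, Hnrnpm and Sf3b4 had ratios of opposite sign at 6 and 24 h, each larger than 1 SD of repeated spots (0.043 at 6 h and 0.051 at 24 h). This is a low bar, which Sf3b4 at 6 h (0.046) barely passed. Scatter of spots holds no variation between cultures, labellings or arrays. How many of all genes meet the same rule was not counted. Hnrnpab had 0.10 at 6 h and -0.08 at 24 h, a difference (24 h minus 6 h) of -0.18. Hnrnpm had 0.06 and -0.14, a difference of -0.20. Sf3b4, a subunit of SF3B, had 0.05 and -0.08, a difference of -0.13. Each time has 1 array, so these differences were not tested.

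Other values come from member probes that were above background in 1 channel and so entered no comparison. A Scaf11 probe (A_52_P371918) at 6 h was at least 1.29-fold higher in treated cells. A Prpf38a probe (A_52_P137145) at 12 h was at least 1.41-fold lower in treated cells than in untreated cells, in which alone it was above background. A Hnrnpdl probe (A_52_P283910) at 24 h was at least 5.66-fold higher in treated cells, with log2 signals of 8.71 in treated and 6.21 in untreated cells. In untreated cells of the 6 and 12 h arrays the same probe had 8.35 and 8.32, and its ratios there were 0.23 and 0.13. At 24 h the other Hnrnpdl probes had ratios of -0.01, 0.19 and -0.14, and the cause of the single low untreated signal was not tested.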

How the results depend on the processing

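Counts changed with the background correction, the normalisation and the 12 h array. Against 20 members that rose and 7 that fell (2259 and 891 of all genes), 6 members and 700 genes rose with Agilent's processed signals, and the members' median was 0.0074, in place of 0.033. With offset 0, 9 members rose, 4 fell and 1232 genes rose. With median centring 59 members rose and 11 fell, 4405 and 4472 genes did, and the members' median was 0.23, against 0.0038 for all genes. With each probe as a feature, 34 of 153 rose and 14 fell (31.4% called, against 28.7% of all probes), and with array weights 33 genes rose and 19 fell (4279 and 2188 of all genes). Restricted to genes with at least 2 probes of 1 sign, a choice made after seeing the data, 11 rose and 4 fell. Leaving out 1 array gave 5 to 16 rises, 3 to 8 falls and medians of 0.022 to 0.041 for members, and 458 to 2297 rises and 158 to 952 falls over all genes, with the lowest counts without the 12 h array. Without that array 9.41% of members were called, against 5.63% of all genes.

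At single times, Agilent's processed signals gave 3, 2 and 4 members lower by a log2 ratio of at least 0.322 at 6, 12 and 24 h, in place of 0, 0 and 1. The median at 24 h was then -0.0027, in place of 0.036. Offset 0 gave 2, 1 and 3 lower, 2 higher at 24 h and a median there of 0.012. Median centring gave 36, 24 and 28 higher, in place of 5, 1 and 1, with 6, 4 and 5 lower and medians of 0.28, 0.16 and 0.20. Plain subtraction gave 1 lower at 6 h and 2 higher and 2 lower at 24 h, no filter 2 higher at 24 h, and the dimmest probes left out 0 lower at 24 h. The brightest probe gave 2 higher at 12 h and 2 higher and 2 lower at 24 h, and separate probes 10, 4 and 4 higher and 2 lower at 24 h. In 24 h minus 6 h, 32 of 42 separate hnRNP probes were below 0, as were 51.3% of all probes. Counts at single times were not taken over all genes under these alternatives, so they cannot show whether members differed from genes in general. The causes were not tested.

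Of the 27 called genes, 5 kept their call wherever fitted. With median centring the mean turned to -0.017 for Prpf4b, -0.12 for Srek1, 0.043 for Srsf6, 0.15 for Prpf8, 0.23 for Hnrnph2, 0.25 for Hnrnpu and 0.057 for Snrpb. Of the 27 calls, 10 held with Agilent's processed signals, 13 with offset 0, 18 with median centring, 20 with the brightest probe, 21 without a filter, 24 with plain subtraction, 26 with array weights and 26 of the 26 that could be fitted without the dimmest probes. Without the 6, 12 or 24 h array, 19, 8 and 19 held. Each ratio already pairs treated with untreated RNA on its array. Beyond that, no replicate block could be fitted, since each time has 1 array.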
